A study of Mus musculus with 4 samples.

Results

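The 7 genes examined were *Cav1*, *Cav2*, *Cavin1*, *Cavin2*, *Plvap*, *Cd34*, and *Emcn*, a set chosen by name for caveolae, endothelial diaphragms, and capillarization, out of 21887 protein-coding genes of the GRCm38.p6 gene table. For each gene, the H3K27ac peaks in the gene body and in the 10 kb on each side were collected, and split into those within 1 kb of an end of the gene and those farther away, here called distal. ChIP-Seq of H3K27ac, a histone acetylation of active promoters and enhancers, was made from mouse liver sinusoidal endothelial cells (LSECs) in 2 libraries, replicates 2 and 3. Both belong to a single group, and the labels name no genotype, strain, treatment, or age for the mice. The study's general procedure purified LSECs with microbeads against CD146, an antigen that endothelium outside the sinusoids also carries, and then plated them. Whether the ChIP-Seq cells were plated, and whether the 2 libraries came from separate mice, is not stated in the sources used here. An input library exists for each replicate and was not analysed here.

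Caveolae are flask-shaped pits of the plasma membrane, built from caveolins that sit in the membrane and cavins that coat it from the cytosol. Endothelial caveolae and many fenestrae are spanned by a thin diaphragm made of PLVAP, whereas the fenestrae of adult LSECs normally lack it. In chronic liver disease LSECs can lose their fenestrae and gain a basement membrane, a change called capillarization, and CD34 is a widely used surface marker of it.

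The replicate 2 list held 26975 peaks and the replicate 3 list 64498, and 37.7% of replicate 3 peaks overlapped a replicate 2 peak by at least 1 bp. A replicate 3 peak met 99.2% of the replicate 2 peaks. The number of reads behind each list is unknown, so no interval based on reads can be given, and fold enrichments over background were compared only within a list. A percentile below is the percent of the peaks of the same list with a lower fold enrichment. With 2 libraries of 1 group no test between conditions could be made, and the value of each library is given in place of a mean ± SD. Peaks from a mixture of cells do not tell acetylation in a few cells from acetylation in all of them.

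At LSEC markers, 9 of 12 genes had a gene end peak of both libraries, against 43.4% of protein-coding genes, and all 12 had at least 1 shared region in the body or flanks, against 58.5%. The corresponding gene end counts were 1 of 10 for hepatocyte markers (*Trf*), 0 of 10 for hepatic stellate cell markers, 0 of 8 for Kupffer cell markers, 0 of 5 for cholangiocyte markers, and 1 of 7 for lymphocyte markers (*Cd79a*). Shared regions in the body or flanks were found at 4 of 10 hepatocyte, 1 of 10 stellate cell, 1 of 8 Kupffer cell, 0 of 5 cholangiocyte, and 3 of 7 lymphocyte markers. Some of these were strong, such as 48.8 in replicate 2 and 141 in replicate 3 at *Fgb*, 14.5 and 59.3 at *Hnf4a*, and 30.5 and 91.8 at *Nkg7*. None of these genes had a peak within 1 kb of its ends. The values are the highest in the body or flanks, assigned by distance alone, and may belong to a neighbour. A gene end peak of replicate 3 alone was present at the 3 remaining LSEC markers, *Stab2* (5.86), *Clec4g* (4.56), and *Mrc1* (4.15). Of the other lists, *Apoa1* (11.4), *Apob* (11.4), *Col1a1* (12.0), *Epcam* (5.86), and *Cd4* (11.8) also had one. Gene end peaks of both libraries were thus found at most LSEC markers and at few markers of other liver cells. The part of other cells in the values below was not tested. Liver sinusoids and other vessels share most pan-endothelial genes, of which 5 of 7 had a gene end peak of both libraries. These lists therefore do not separate LSECs from other CD146-bearing endothelium.

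The 250 bases before the RefSeq transcription start are shown for 6 members, because the results differ among exactly these windows. RefSeq promoters of GRCm38.p6 matched 6 of the 7 genes, not *Plvap*. Each sequence runs 5′ to 3′ on the strand of its gene, and capitals mark matches to short motifs, searched on both strands. ETS factors were searched by the letters AGGAAG. The AP-1 motif was searched as TGANTCA, where N is any base. For the GC box, bound by Sp1-like factors, the letters were GGGCGG. Kruppel-like factors were represented by the shorter letters CACCC. GATA factors were searched as AGATAA, and the TATA box of core promoters was searched by its letters TATAAA. A GC box and a Kruppel-like match can overlap in G-rich stretches, and a match describes letters only. For *Cav1* the second of 2 starts is shown, and for *Cavin1* the outer of 2 starts that lie 2 bp apart.
Cav1 (chr6:17307390-17307639, plus strand): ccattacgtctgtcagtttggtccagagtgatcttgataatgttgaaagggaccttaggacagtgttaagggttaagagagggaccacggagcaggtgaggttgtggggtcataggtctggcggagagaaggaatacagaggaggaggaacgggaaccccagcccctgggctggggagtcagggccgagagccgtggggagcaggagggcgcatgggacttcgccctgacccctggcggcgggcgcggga
Cav2 (chr6:17280935-17281184, plus strand): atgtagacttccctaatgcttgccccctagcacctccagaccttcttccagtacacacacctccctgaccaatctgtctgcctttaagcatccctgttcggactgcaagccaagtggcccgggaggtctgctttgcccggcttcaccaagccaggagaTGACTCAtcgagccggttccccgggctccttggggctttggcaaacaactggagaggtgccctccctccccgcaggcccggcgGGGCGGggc
Cavin1 (chr11:100970618-100970867, minus strand): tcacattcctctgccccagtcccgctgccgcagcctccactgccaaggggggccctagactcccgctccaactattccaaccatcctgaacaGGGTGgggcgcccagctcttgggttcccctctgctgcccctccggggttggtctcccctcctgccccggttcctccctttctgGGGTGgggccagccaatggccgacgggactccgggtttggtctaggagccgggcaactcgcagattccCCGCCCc
Cavin2 (chr1:51288876-51289125, plus strand): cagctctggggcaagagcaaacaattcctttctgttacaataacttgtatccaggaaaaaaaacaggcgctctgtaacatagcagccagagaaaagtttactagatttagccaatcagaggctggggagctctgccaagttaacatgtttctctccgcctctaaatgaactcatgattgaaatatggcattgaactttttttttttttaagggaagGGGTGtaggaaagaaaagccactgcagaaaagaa
Cd34 (chr1:194938571-194938820, plus strand): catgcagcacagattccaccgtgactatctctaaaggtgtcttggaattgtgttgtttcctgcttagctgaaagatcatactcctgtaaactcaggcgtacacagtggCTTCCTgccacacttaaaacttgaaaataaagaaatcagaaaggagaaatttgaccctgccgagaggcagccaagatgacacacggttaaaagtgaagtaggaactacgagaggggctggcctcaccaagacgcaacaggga
Emcn (chr3:137340828-137341077, plus strand): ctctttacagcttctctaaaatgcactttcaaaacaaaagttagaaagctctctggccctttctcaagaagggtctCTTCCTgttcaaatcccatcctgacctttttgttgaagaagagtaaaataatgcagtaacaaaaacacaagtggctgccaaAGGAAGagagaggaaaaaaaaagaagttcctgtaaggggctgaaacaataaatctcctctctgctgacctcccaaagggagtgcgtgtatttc

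The windows of *Cav1*, *Cav2*, and *Cavin1* held 12, 10, and 12 sites of the dinucleotide CpG, against a median of 6 and quartiles of 2 and 16 over the 32851 promoters of the table. Those of *Cd34*, *Cavin2*, and *Emcn* held 6, 2, and 1. Peaks covered all 250 bases shown for *Cav1* in both libraries, and 174 bases for *Cav2*, 166 for *Cavin1*, and 129 for *Cavin2* in replicate 2. In replicate 3 the same 3 windows were covered over all 250 bases. Before the first start of *Cav1*, which is not shown, replicate 3 covered all 250 bases and replicate 2 covered 0. The nearest replicate 2 peak lay 18 bp from that start. In the *Cd34* window, replicate 3 covered 116 bases and replicate 2 none, and the *Emcn* window had no covered base in either library.

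A GC box match was present in the windows of *Cav2* and *Cavin1*, and also before the first start of *Cav1*, against 32.7% of all promoters. ETS matches numbered 1 in *Cd34* and 2 in *Emcn*, and the letters were present in 29.5% of all promoters. The AP-1 letters occurred once, in *Cav2* (6.75% of promoters), and CACCC occurred in *Cavin1*, where it was found at 2 places, and in *Cavin2* (52.0%). The TATA letters were present before the first *Cav1* start alone (12.4%), and the GATA letters in none of the 6 genes (9.99%). No motif searched was common to all the members with acetylated starts.

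Across the 7 genes, 40 regions of H3K27ac were found, where a region is a set of overlapping peaks of the 2 lists merged into 1. Of these, 17 had a peak of both libraries (shared), 23 had a replicate 3 peak alone, and 0 had a replicate 2 peak alone. By the place of the merged region, the 17 shared regions comprised 6 at gene ends and 11 distal regions. Of the 11, 4 lay in gene bodies and 7 in flanks. The 6 include a *Cd34* region whose replicate 2 peak lies 1397 bp from the gene end. The 11 include a *Cav1* region that covers its second RefSeq start. The 23 regions of replicate 3 alone comprised 7 at gene ends and 16 distal. Thus 42.5% of the 40 replicate 3 peaks at these genes had a replicate 2 peak, beside 37.7% of the whole list. The 95% Wilson interval for the count of peaks alone was 28.5% to 57.8%. It treats the peaks as independent, although they lie in 7 chosen genes, so it is no test against the whole list.

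A pair of overlapping peaks, each within 1 kb of an end of the gene, was present at 5 of the 7 genes (*Cav1*, *Cav2*, *Cavin1*, *Cavin2*, and *Plvap*), against 43.4% of protein-coding genes. With a −log10 q of at least 5, or with both lists cut to equal length by strength, *Cav1* and *Cavin2* lost the call (3 of 7 left). When at least 50% of each peak had to overlap, the call was left at *Cav2* (1 of 7). The share over all protein-coding genes was not computed under these stricter rules, so these falls are not set against other genes. *Cd34* had a gene end peak in replicate 3 only, a state of 10.5% of protein-coding genes, and *Emcn* had none in either library, like 46.1% of them. At least 1 shared region in the body or flanks was found at all members but *Emcn*, that is at 6 of 7 genes, against 58.5% of protein-coding genes. A shared distal region was found at 5 of 7 (*Cav1*, *Cavin1*, *Cavin2*, *Plvap*, and *Cd34*), against 39.3%. The median number of shared regions was 3 at the members and 1 over all protein-coding genes, and the median share of the window covered by peaks of both libraries was 1.71% and 0.577%.

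**Figure D1:**
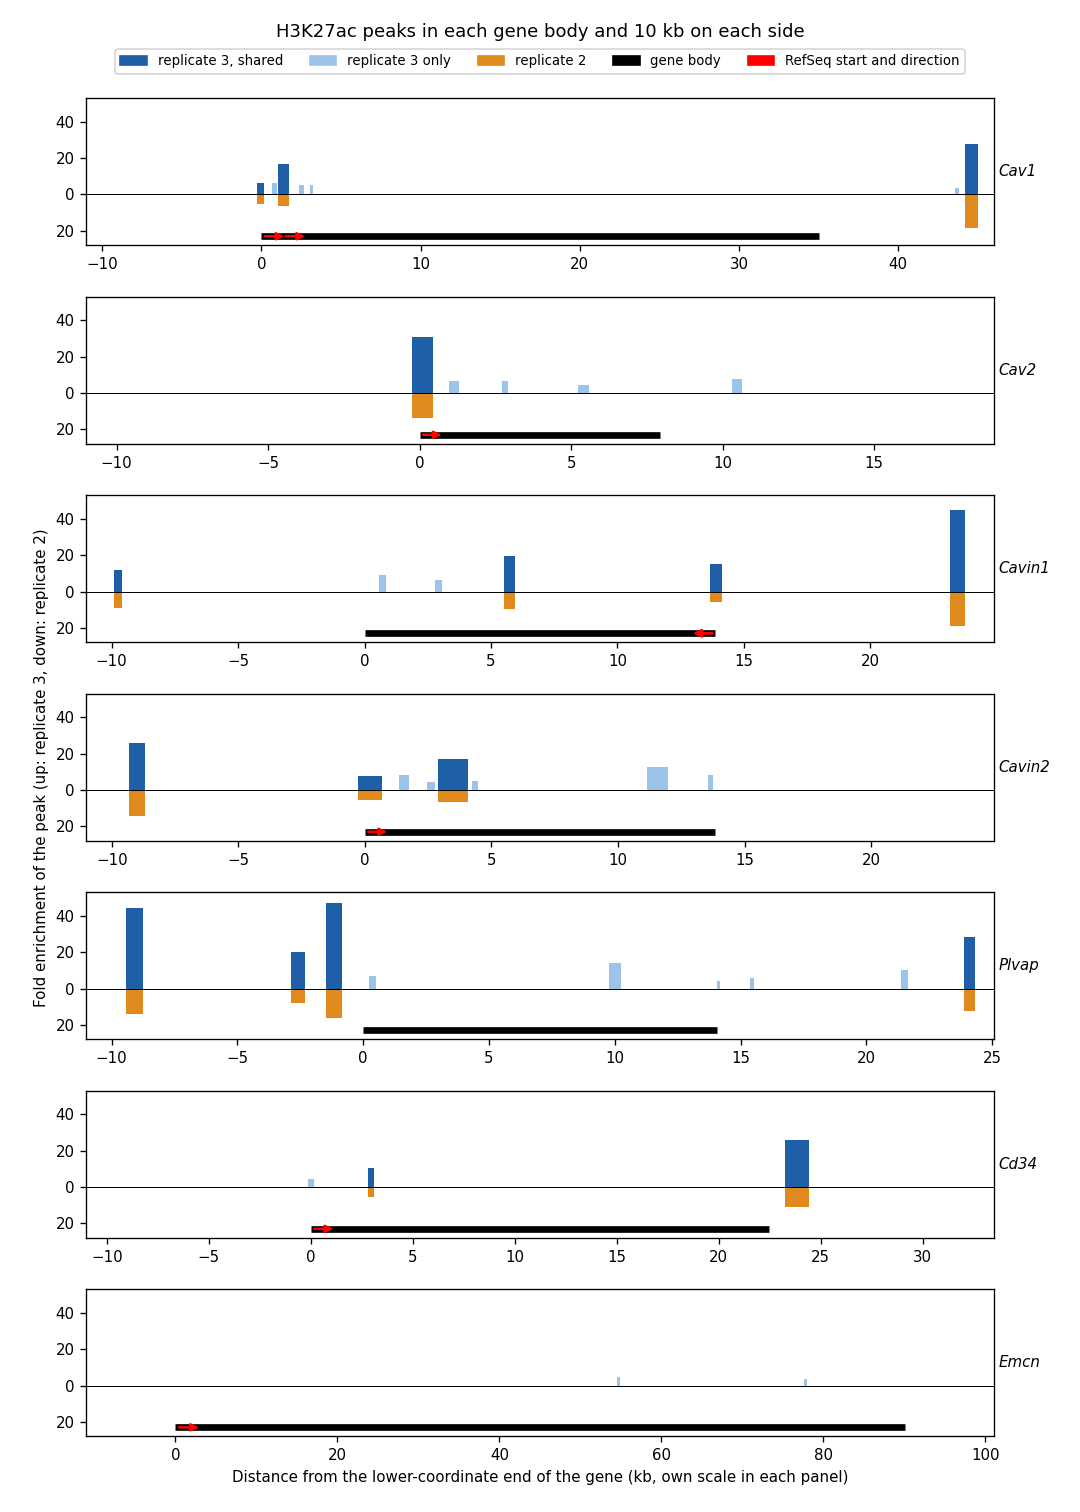
H3K27ac peaks at each of the 7 genes. The x axis is the distance in kb from the lower-coordinate end of the gene, on its own scale in each panel, and the y axis is the authors' fold enrichment, drawn upward for replicate 3 and downward for replicate 2. Each bar spans a merged region, and very narrow regions are widened to be visible. Upward bars are dark blue where replicate 2 also has a peak and light blue where it has none, downward orange bars are the replicate 2 peaks, the black line is the gene body, and red arrows mark RefSeq starts where the table gives them. *Emcn* shows 2 light bars and no orange bar, whereas *Cavin1* and *Plvap* each show 4 shared regions.

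Caveolins form the membrane scaffold of the caveola. *Cav1* encodes the caveolin without which endothelial caveolae do not form, and spans chromosome 6 from 17306335 to 17341328 on the plus strand, with RefSeq starts at 17306335 and 17307640. The region at the first start (17306047 to 17306505) was weak in both lists, with a fold enrichment of 5.42 in replicate 2 (5.89th percentile) and 6.49 in replicate 3 (33.3rd percentile). At the second start the region (17307368 to 17308035) had 6.10 in replicate 2 (12.9th percentile) and 16.9 in replicate 3 (70.8th percentile). This second region lies 1033 bp from the gene end, so the 1 kb limit counts it as distal, although it covers a transcription start and the whole sequence shown above.

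The strongest region of *Cav1* was neither of these but lay 9.21 kb past the 3′ end (17350534 to 17351370), with 18.3 in replicate 2 (79.9th percentile) and 27.7 in replicate 3 (81.6th percentile). Beyond the 10 kb limit, the next shared region on that side was 12.4 kb from the gene and carried 16.3 and 34.6. The 4 other regions in the *Cav1* window had a replicate 3 peak alone, with fold enrichments of 3.36 to 6.14.

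*Cav2*, whose product depends on caveolin-1 to reach the cell surface, is the neighbour of *Cav1* on the same strand (chromosome 6, 17281185 to 17289130). It had a single shared region, at its start (17280917 to 17281628), with 13.6 in replicate 2 (66.5th percentile) and 30.6 in replicate 3 (83.3rd percentile). The start of *Cav2* thus ranked above both starts of *Cav1* in each list. The summits of the 2 libraries in this region lay 9 bp apart, the smallest distance among the 17 shared regions. The 4 remaining regions of *Cav2* were seen in replicate 3 alone, with fold enrichments of 4.30 to 7.49, and the gene had no shared distal region within 10 kb. No shared region lay between the start regions of the 2 caveolin genes, and below *Cav2* the nearest was 69.5 kb away.

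Cavins assemble into the coat that shapes the caveolar neck and bulb. *Cavin1*, the cavin needed for caveolae in all tissues that have them, lies on chromosome 11 from 100956736 to 100970617 on the minus strand. Its start (100970415 to 100970887) had 5.62 in replicate 2 (10.9th percentile) and 15.3 in replicate 3 (68.1st percentile). The strongest region lay 9.26 kb upstream of the start (100979877 to 100980480), with 18.9 in replicate 2 (80.7th percentile) and 45.0 in replicate 3 (90.0th percentile). It had the highest fold enrichment in replicate 2 of all shared regions at the 7 genes.

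Inside the *Cavin1* body, the region from 100962257 to 100962701 had 9.76 in replicate 2 and 19.5 in replicate 3. The fourth shared region (100946823 to 100947150), 9.59 kb past the 3′ end, had 8.81 and 11.6. Past it, 16.4 kb from the gene, a region at an end of *Stat3* (100938723 to 100940301) reached 41.3 in replicate 2 and 96.1 in replicate 3, above every value in the *Cavin1* window. Regions are assigned here to a gene by distance alone, so a flank region may belong to a neighbour.

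*Cavin2*, a cavin that helps form endothelial caveolae in some vascular beds, lies on chromosome 1 from 51289126 to 51302960 on the plus strand, inside the longer noncoding gene *9330175M20Rik*. At its start (51288855 to 51289815) replicate 2 had a pair of peaks, the stronger with 5.42 (5.89th percentile), and replicate 3 a single peak of 7.97 (44.4th percentile). The start was acetylated in both libraries with only 2 CpG sites in the window shown above. Of the 3891 protein-coding genes with at most 2 CpG sites before their starts, 2.42% had overlapping peaks of both libraries within 1 kb of a start.

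As at *Cav1* and *Cavin1*, the start was not the strongest region of *Cavin2*. A region 8705 bp upstream (51279813 to 51280421) had 14.2 in replicate 2 (68.7th percentile) and 26.0 in replicate 3 (80.2nd percentile), and a body region (51292007 to 51293217) had 6.55 and 16.9. A further body region, from 51300279 to 51301086, had 12.7 in replicate 3 and no peak in replicate 2. Peaks of replicate 3 covered 13.9% of the *Cavin2* window, at the 96.5th percentile of protein-coding genes, whereas peaks of both libraries covered 2.24%, at the 79.8th.

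At *Cav1*, *Cavin1*, and *Cavin2*, the strongest shared distal region stood above the strongest gene end peak in both libraries. This was so at 3 of the 4 members that had both kinds of region in both libraries (the exception was *Plvap*), and at 33% of the 5345 protein-coding genes with both kinds. The 3 distal regions lay 8705 bp to 9.26 kb from the nearer gene end, near the 10 kb limit of the window, so a narrower window would have missed them. Each of the 3 genes also had a weaker shared region in its body that stood above its strongest gene end peak in both libraries. In replicates 2 and 3 these body regions had 9.76 and 19.5 at *Cavin1*, 6.55 and 16.9 at *Cavin2*, and 6.10 and 16.9 at *Cav1*. The *Cav1* body region covers its second RefSeq start.

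**Figure D2:**
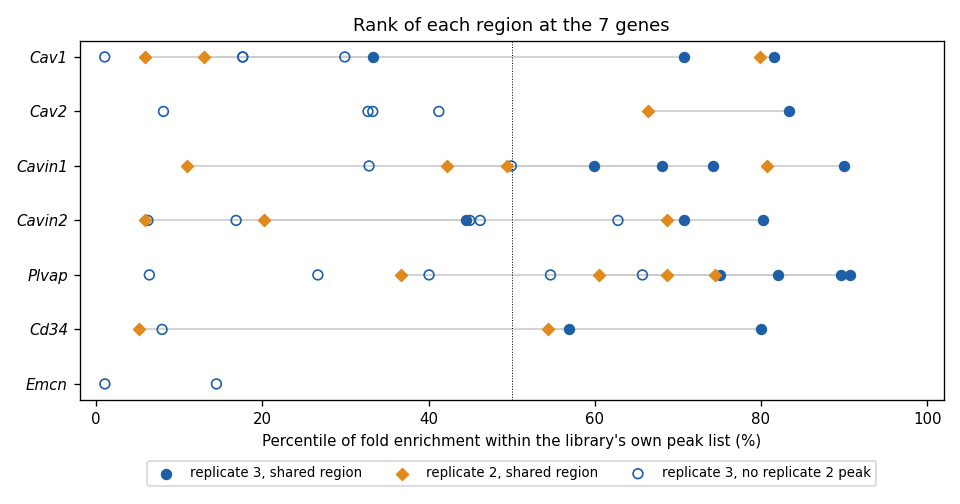
Percentile of each region's fold enrichment within its own list (x axis, percent of peaks with a lower value) for the 7 genes (y axis). Filled circles are replicate 3 and diamonds replicate 2 values of shared regions, joined by a grey line, and open circles are regions with a replicate 3 peak alone. All 17 shared regions sit higher in the replicate 3 list, which is longer and holds many weak peaks without a replicate 2 peak, so positions in the 2 lists are not comparable, and *Emcn* has open circles alone, at 1.04 and 14.5.

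The diaphragm gene *Plvap*, whose product forms the radial fibrils that span caveolae and fenestrae, lies on chromosome 8 from 71497753 to 71511806, and its lower end overlaps *Gtpbp3*. It had 4 shared regions, the same number as *Cavin1* and the highest among the 7 genes. The strongest (71496289 to 71496922) had 16.3 in replicate 2 (74.5th percentile) and 47.2 in replicate 3 (90.7th percentile), the highest replicate 3 value at the 7 genes. It lay 831 bp outside the lower end by the replicate 3 peak and 945 bp by the replicate 2 peak, inside *Gtpbp3*. The gene end call of *Plvap* in both libraries rests on this region.

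The other 3 shared regions of *Plvap* were in the flanks and also within neighbouring genes. Those in *Gtpbp3* had 14.2 and 44.3 (71488343 to 71489021) and 8.13 and 20.2 (71494884 to 71495423), in replicates 2 and 3 in this order. The region in *Ccdc194* (71521615 to 71522078), 9.81 kb above the upper end, had 12.2 and 28.4. Within the *Plvap* body no region was shared.

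The upper end of *Plvap* carried a small peak of replicate 3 alone (71511794 to 71511943), with a fold enrichment of 4.23 at the 6.39th percentile. Replicate 3 peaks of like strength, within 10% of that value, had a replicate 2 peak in 1.78% of cases. The strongest region of replicate 3 alone at any of the 7 genes was in the *Plvap* body (71507522 to 71507982), with 14.0, and 48.2% of the replicate 3 peaks of like strength had a replicate 2 peak. The shared regions near the diaphragm gene thus all lay within neighbouring genes, and its body and upper end had acetylation in replicate 3 alone. Which end of *Plvap* is its start is not given in the sources used here. Its gene end call therefore cannot be read as a peak at the start.

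*Cd34* and *Emcn* encode sialomucins of the endothelial surface. *Cd34* lies on chromosome 1 from 194938821 to 194961292 on the plus strand, and its start (194938705 to 194938994) had a peak in replicate 3 only, of 4.28 at the 7.93rd percentile. Of replicate 3 peaks within 10% of this fold enrichment, 1.75% had a replicate 2 peak. At this strength, the absence from replicate 2 was therefore the usual state in these lists and cannot be told apart from a difference in detection.

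Acetylation of *Cd34* shared by both libraries lay away from the start. A body region 2803 bp past the start (194941624 to 194941898) had 5.27 in replicate 2 (5.15th percentile) and 10.7 in replicate 3 (56.9th percentile). A wider region past the 3′ end (194962065 to 194963258), in the noncoding gene *Gm16897*, had 10.8 in replicate 2 (54.3rd percentile) and 25.7 in replicate 3 (80.0th percentile). Its replicate 3 peak began 773 bp from the gene end and its replicate 2 peak 1397 bp from it, on either side of the 1 kb limit, which is why *Cd34* has a gene end peak in replicate 3 only. Of the 6 genes with a shared region, *Cd34* had the smallest share of its window covered by both libraries, 1.46%.

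*Emcn*, which encodes endomucin, a mucin of capillary and venous endothelium, was the member without shared acetylation. It lies on chromosome 3 from 137341062 to 137431069 and has the longest window of the 7 genes. Its window held 2 peaks, both of replicate 3 alone and both in the gene body, with 4.88 (137395709 to 137395866, 14.5th percentile) and 3.41 (137418733 to 137418924, 1.04th percentile). From its RefSeq start the nearest peak was 18372 bp away in replicate 3 and 47648 bp in replicate 2. The nearest shared region lay 47.5 kb below the gene, inside *Gm567*, and on the other side 429 kb away. At these strengths, 2.40% and 2.52% of like replicate 3 peaks had a replicate 2 peak, so the lists bear on *Emcn* only as far as the detection of weak peaks allows.

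Detection in replicate 2 followed the strength of the peak in replicate 3 over the whole list. With replicate 3 peaks ordered by fold enrichment and cut into 10 groups of like size, the share with a replicate 2 peak, from the weakest group to the strongest, went from 2.06% to 100%. At the 7 genes the median replicate 3 fold enrichment was 20.2 over the 17 shared regions (6.49 to 47.2), and 6.14 over the 23 regions of replicate 3 alone (3.36 to 14.0). The groups overlapped, as 8 of the 23 lay above the weakest shared region, the first start of *Cav1*. In percentiles of the replicate 3 list, the medians were 75.1 and 29.9. In the replicate 2 list, the median of the 17 shared regions was 49.4, and 8 of them ranked above the 50th percentile, while 15 did so in replicate 3. Nearly all replicate 2 peaks are shared and most replicate 3 peaks are not, so shared regions tend to rank higher in the replicate 3 list whatever the gene, and the ranks of the 2 lists are not compared. Where the 2 libraries had a shared region, their summits lay close together, with a median distance of 29 bp and 15 of the 17 within 100 bp. Peaks of replicate 3 were the wider in all 17, with a median width of 609 bp against 285 bp.

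**Figure D3:**
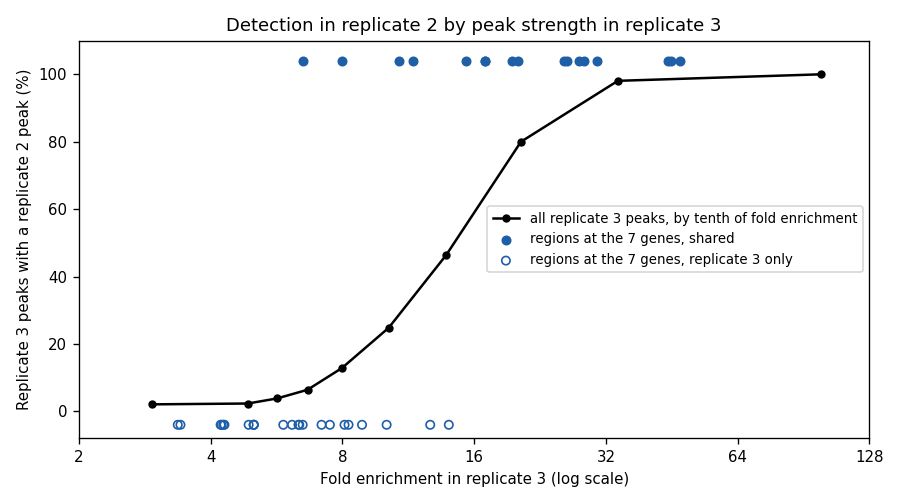
Share of replicate 3 peaks that overlap a replicate 2 peak (y axis, percent) by fold enrichment in replicate 3 (x axis, log scale). The black line joins 10 groups of like size from the whole list, each at the geometric middle of its range. Filled circles at the top are the 17 shared regions of the 7 genes and open circles at the bottom the 23 regions of replicate 3 alone, placed by fold enrichment, with no y value. The open circles end at 14.0, and the filled circles begin at 6.49, so the groups overlap between these values.

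By RefSeq starts, 4 of the 6 matched genes (*Cav1*, *Cav2*, *Cavin1*, and *Cavin2*) had overlapping peaks of both libraries within 1 kb, against 45.6% of 17492 protein-coding genes. With *Cd34*, 5 of 6 had a replicate 3 peak, against 9517 of the 17492 genes. Over all genes, the share with peaks of both libraries rose with CpG content, from 2.42% with 0 to 2 CpG sites to 15.5% with 3 to 6, 58.2% with 7 to 16, and 78.6% with 17 to 56. *Cav1*, *Cav2*, and *Cavin1* fell in the class of 7 to 16 sites and had peaks of both libraries. *Cd34*, with 6 sites, had replicate 3 alone, and 25.4% of its class had a replicate 3 peak. *Emcn* and *Cavin2* fell in the same class of 0 to 2 sites and differed, *Cavin2* with peaks of both libraries and *Emcn* with none.

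**Figure D4:**
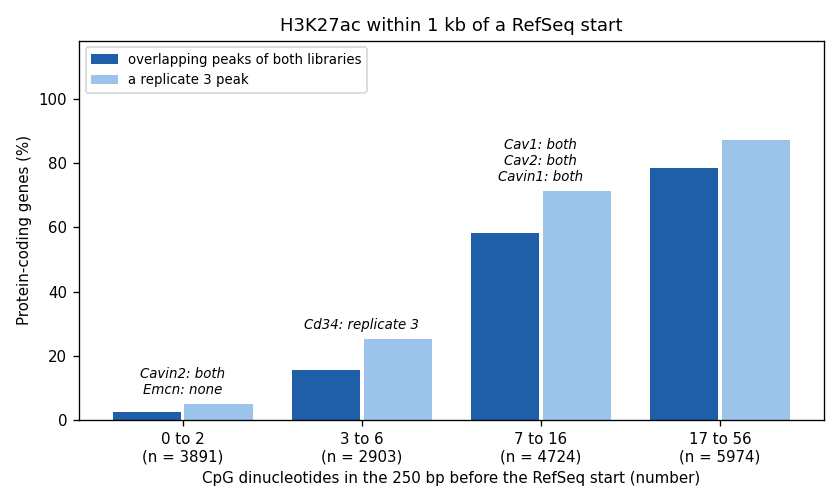
Share of protein-coding genes with H3K27ac within 1 kb of a RefSeq start (y axis, percent), by the number of CpG dinucleotides in the 250 bases before it (x axis). Dark bars are overlapping peaks of both libraries and light bars are a replicate 3 peak, and the state of each matched member is written above its class. The dark bars rise from 2.42% to 78.6%, and *Cavin2* stands in the lowest class with peaks of both libraries.

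Among 10 other genes of caveolae, 5 had a gene end peak of both libraries, 1 had it in replicate 3 only, and 4 had none. Over all protein-coding genes the shares were 43.4%, 10.5%, and 46.1%, near those of this list. The 5 were the EH-domain ATPases *Ehd1*, *Ehd2*, and *Ehd4*, which sit at the caveolar neck, and the F-BAR proteins *Pacsin2* and *Pacsin3*, which bend membranes. Their strongest gene end peaks were at 50.7, 41.3, 74.8, 84.7, and 91.2 in replicate 3 and at 21.0, 19.7, 28.5, 23.2, and 23.5 in replicate 2. In both libraries these 5 values exceeded the start regions of *Cav1*, *Cav2*, *Cavin1*, and *Cavin2*. The measures differ, since the 5 values are the strongest at either end of genes picked for having such a peak. By that measure *Plvap* had 16.3 in replicate 2 and 47.2 in replicate 3, the latter above *Ehd2*. The muscle genes *Cav3* and *Cavin4* had no shared region, and *Cavin3* had 1 distal shared region of 6.10 and 6.49.

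Of 10 genes of continuous capillary endothelium, 6 had a gene end peak of both libraries, 2 in replicate 3 only, and 2 none. Over all protein-coding genes the shares were 43.4%, 10.5%, and 46.1%. The 6 were *Cldn5*, *Ly6a*, *Gpihbp1*, *Fabp4*, *Rgcc*, and *Aqp1*. The median share of the window covered by both libraries was 2.38% for these 10 genes, 3.31% for the 7 pan-endothelial genes, 3.01% for the 12 LSEC markers, and 0.955% for the 10 other caveola genes, beside 1.71% for the members. By this measure the members lay between the other caveola genes and the endothelial lists. By the median number of shared regions they did not, with 3 at the members, 1 at the other caveola genes, 2 at the continuous capillary genes, 9 at the pan-endothelial genes, and 4 at the LSEC markers. No test of these lists was made, since they were chosen with earlier results of these data known.

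**Figure D5:**
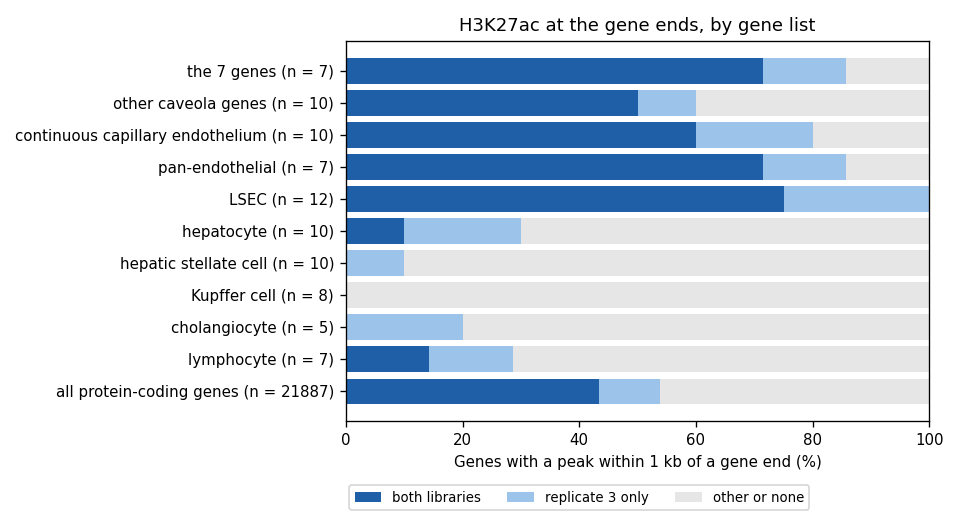
Share of the genes of each list (x axis, percent) with a peak within 1 kb of a gene end, for the 7 members, 9 comparison and marker lists, and all protein-coding genes (y axis, with n genes). Dark blue is overlapping peaks of both libraries, light blue a replicate 3 peak only, and grey any other state. The 7 members show both libraries at 5 genes, and the hepatic stellate cell, Kupffer cell, and cholangiocyte lists show it at 0.

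The genes most like each member were those of the 3 comparison lists with the nearest pair of strongest fold enrichments, by the distance of the log2 values over the 2 libraries. *Cd34* (10.8 and 25.7) was nearest to *Eng* (11.6 and 26.1; distance, 0.10), and *Cav2* to *Vwf* (12.9 and 32.5; 0.11). *Cavin1* was nearest to the fatty acid transporter *Cd36* (21.0 and 43.3; 0.16), which had 4 distal shared regions and no gene end peak. *Cavin2* was nearest to *Pecam1* (14.9 and 23.3; 0.17). The nearest genes of *Plvap* (*Erg*, 17.4 and 36.5; 0.38) and *Cav1* (*Pecam1*; 0.39) were farther away, and *Emcn* had no replicate 2 peak to compare. The LSEC and other marker lists were not searched, and some of their genes were nearer. The LSEC marker *Maf* (13.6 and 31.3) was nearer to *Cav2* (13.6 and 30.6) than *Vwf* was. *Oit3*, another LSEC marker (19.0 and 47.1), was nearer to *Cavin1* (18.9 and 45.0) than *Cd36* was, and nearer to *Plvap* than *Erg* was. Nearness thus does not assign a member to a list. The values rest on 2 libraries and on peak height alone.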

How the data were processed

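Chromatin of mouse LSECs was immunoprecipitated for H3K27ac, and the authors made 1 peak list per library, not pooled. The deposited fold enrichment is the ratio of a peak's signal to background within its library. Further deposited columns give −log10 p-values and −log10 q-values from the authors' caller (at least 2.04 in replicate 2 and 2.01 in replicate 3) and a score that rescales the latter. The submitters' processing notes name mm10 (GRCm38), cutadapt 0.4.4, BWA 0.7.17, Picard 1.67, MACS2 2.0.10, and bedtools 2.27.1, with no role or order. Whether the inputs entered the calls is not given in the sources used here. The paper describes a tagmentation-assisted method and the sample records sonication with a library kit. A deeper or stronger library yields more peaks, which changes every count of peaks, and the depth is unknown.

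Groups and replicate numbers came from the sample titles. Peaks were called shared at an overlap of at least 1 bp, and regions were merged peaks of both lists. A gene had a gene end peak of both libraries when 2 overlapping peaks each lay within 1 kb of either end. Gene bodies came from the RefSeq gene table of GRCm38.p6, which gives neither strand nor exons, and starts, strands, and sequences from the RefSeq promoter table of the same build. Positions count from 1. Exons, introns, and UTRs were not told apart. All 7 members were named, and other genes by list, by a gene end within 1 kb of a region, or by the nearest fold enrichments. *Stat3*, the genes that hold a region, and *Cd36*, *Cav3*, *Cavin3*, *Cavin4*, *Maf*, and *Oit3* were named after their values were seen. The members and the lists were chosen with earlier results of these data known, and no test was run. Overlap counting was first tested on simulated peaks. Alternatives were stricter q-values, equal list lengths, reciprocal overlap, other windows, joined regions, another ranking, and each library alone. Python 3.11.15 was used with pandas 2.3.3, numpy 2.4.6, matplotlib 3.10.9, and scipy 1.17.1.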

Additional observations from a re-analysis of the deposited data

How the results depend on the processing

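The count of 5 genes with a gene end peak of both libraries fell to 3 with a −log10 q of at least 5 and to 3 with both lists cut to their strongest peaks at equal length, *Cav1* and *Cavin2* being lost both times, and to 1 (*Cav2*) with a reciprocal overlap of at least 50%. It was 5 to 6 when either replicate was left out, 6 within 2.5 kb of an end, and, under alternatives chosen after seeing the data, 6 with the merged region within 1 kb (*Cd34* added) and 4 with RefSeq starts, which cover 6 genes without *Plvap* and gave the same 4 of these 6 as the gene ends did. Except for RefSeq starts (45.6%), no share over all protein-coding genes was computed under these settings. These changes therefore do not show how the members compare with other genes. The 11 shared distal regions became 6 with reciprocal overlap, 6 with regions within 5 kb joined, 4 in gene bodies alone, 32 with 50 kb on each side, and 12 to 27 with each replicate left out (27 without replicate 2). The 42.5% of replicate 3 peaks with a replicate 2 peak became 87.5% with lists of equal length and 17.5% with reciprocal overlap. Peaks of both libraries covered 1.36% of the windows, and peaks of a single library 1.39% to 5.15%, the higher without replicate 2. The covered share was 0.644% with reciprocal overlap and 0.687% in gene bodies alone, and these falls counted as within the limit of 2.66 percentage points (the SD of the 2 libraries), a limit that no fall could pass. The limits were 1.5 times for counts and the Wilson interval for the share of peaks. For the percentile of a gene's strongest replicate 3 gene end peak, the limit was a Wilson interval over the whole replicate 3 list. That interval is narrow. In all, 18 of 29 alternatives left these 4 results within such limits. The 18 include the falls of the covered share, which could not have been counted as moved, so the tally overstates stability. For values of single genes 30 of 61 stayed within the limits, and 12 of the 31 that moved were higher. Small shifts of a percentile are among these 31, such as *Cav2* from 83.3 to 81.9 when ranked by −log10 p. Another was *Plvap* from 90.7 to 90.0 with the stricter q-value. The cause of these shifts was not tested, beyond the smaller window or the fewer peaks that an alternative itself uses. At *Plvap*, the gene body alone held 0 of the 4 shared regions. No paired analysis was possible because a single group has peak lists and no result comes from a test. Weak peaks are limited by an unknown depth.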
